A study of Glycine max with 47 samples.

Results

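Whole roots of the soybean cultivars MN1806CN and PI518671 were compared 5 days after soybean aphids (SBA, biotype 1) had been put on the shoots of plants that received no nematode eggs. The 6 libraries, 3 of each cultivar, were taken by their column names from the 47 libraries of the series, which hold both cultivars under 4 treatments at 5 and 30 days post infestation (dpi). MN1806CN is resistant to the soybean cyst nematode (SCN, HG type 0) and PI518671, the cultivar Williams 82, is susceptible to it, whereas the study's methods describe both as susceptible to SBA. Each aphid plant received 15 aphids at the second trifoliate stage, all 6 plants stood in the same water bath, and each cultivar is represented by a single line. The other treatments were a control with neither pest, SCN alone (2000 eggs at planting), and SCN and SBA together (SCN:SBA). Plants of 30 dpi stood in another water bath, so the time point and the water bath cannot be told apart.

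The soybean aphid is a sap-sucking insect that lives on leaves and stems and takes its food from the phloem, the tissue that carries sugars and signals between shoot and root. It does not feed on roots, so root RNA reports on the plant at a distance from the feeding site. The nematode, by contrast, settles inside the root and draws on feeding cells next to the vascular tissue. Cultivars also differ in many root transcripts without any pest, through sequence, copy number and regulatory differences between lines, so a comparison of cultivars under SBA holds lasting cultivar differences and any that belong to the aphid plants. The other treatments show how far a gene's difference between the cultivars was also found in other libraries.

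The table gives estimated counts for 55983 genes, and the 43122 genes tested had a level of 0.5 CPM (a count scaled to the library total) or more in 1 or more of the 47 libraries. The total estimated count of the SBA libraries of MN1806CN was 16815160, 12268563 and 16590158 in replicates 1 to 3, against 18157064, 45293720 and 18171819 in those of PI518671. At these depths 0.5 CPM equals between 6.13 and 22.6 counts in a library. The table carries gene IDs without names or descriptions, and 0 of them matched the reference table used here. Genes are therefore described by their levels, by their behaviour in other libraries and by their order along the chromosomes, and neither pathways nor root cell type markers could be looked up. In bulk root RNA, fewer cells of a type and less RNA per cell cannot be told apart.

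Replicate 2 of MN1806CN stood apart from the other libraries of its group. Over log2(CPM + 1) of the kept genes, Pearson's correlation was 0.976 between replicates 1 and 3 of MN1806CN, but 0.931 and 0.946 between replicate 2 and each of them. Within PI518671 the correlation was 0.917 to 0.943, and between the cultivars it was 0.867 to 0.956. The highest value between the cultivars joined replicate 2 of MN1806CN with replicate 2 of PI518671, and the library closest to replicate 2 of MN1806CN among those of 5 dpi was MN1806CN SCN:SBA replicate 1 (0.963). The genes that separate the cultivars in all 41 libraries outside the comparison nevertheless placed all 6 libraries with their labels. There were 143 such genes, and 142, 140 and 139 of them lay on the MN1806CN side in the MN1806CN libraries, while 136, 140 and 139 lay on the PI518671 side in the PI518671 libraries.

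In roots of aphid-infested plants, 1181 genes were higher and 392 were lower in MN1806CN than in PI518671, which together is 1573 of 43122 genes or 3.65% (edgeR quasi-likelihood test, Benjamini-Hochberg adjusted p under 0.05). The genes called higher were 2.74% of those tested and the genes called lower were 0.909%. The median difference was 2.31 on the log2 scale among the genes called higher and −2.49 among those called lower, against −0.06 over all genes tested. A difference of at least 1 on the log2 scale, in either direction, was held by 1126 of the higher and 378 of the lower genes, and a difference of at least 4 by 233 and 119. The values of the 3 MN1806CN libraries did not overlap those of the 3 PI518671 libraries in 1171 (99.2%) of the higher and 383 (97.7%) of the lower genes, and in 26.0% of all genes tested. Calls of a higher level were more frequent among abundant genes, with 6.26% of the genes above 100 CPM against 1.2% of those under 1 CPM, whereas calls of a lower level were 0.319% and 0.948% in the same classes.

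The number of called genes depended on single libraries. Without MN1806CN replicate 2 it was 3388, and without MN1806CN replicate 1 it was 285. It was 712 without MN1806CN replicate 3, and 552, 648 and 448 without PI518671 replicates 1, 2 and 3. In a fit without the 3 PI518671 control libraries the count was 2776, with only the 6 libraries 473, and with the DESeq2 Wald test 3439. Under every one of the 6 omissions, 163 genes were called higher and 79 were called lower, and these are used below beside the full sets.

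As a set, the genes called higher were high in all MN1806CN libraries, but less so in replicate 2. Their median level, as log2(CPM + 1), was 5.08, 4.03 and 4.53 in MN1806CN replicates 1 to 3, against 2.56, 2.56 and 2.73 in PI518671. They took 9.91%, 4.56% and 6.99% of all counts in the MN1806CN libraries, against 1.72%, 1.85% and 1.88% in the PI518671 libraries. The genes called lower had median levels of 0.78, 1.18 and 0.86 in MN1806CN and of 2.92, 2.76 and 2.97 in PI518671. The genes were chosen for their difference between these same libraries, so the separation of the cultivars in both sets follows from that choice. Replicate 2 was the MN1806CN library nearest to PI518671 in either set.

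**Figure D1:**
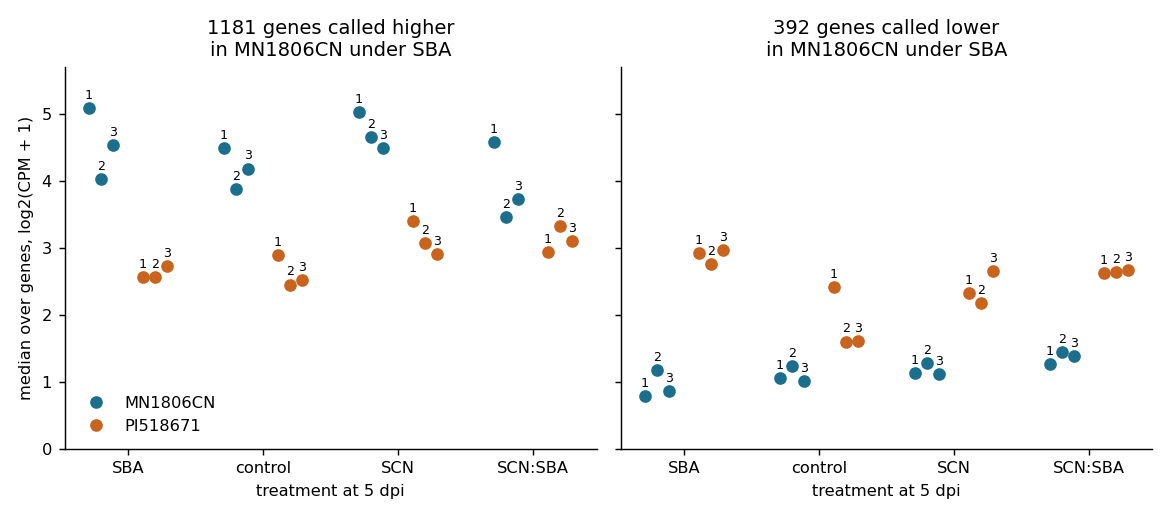
Median level, as log2(CPM + 1), of the 1181 genes called higher (left) and the 392 genes called lower (right) in MN1806CN under SBA, in each library at 5 dpi, with 1 point per library numbered by replicate. The genes were called on the difference between the SBA libraries, with a spread estimated over all libraries of 5 dpi. In the control, SCN and SCN:SBA libraries every MN1806CN median lies above every PI518671 median of the same treatment in the left panel and below it in the right panel.

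The direction and size of the differences that chose these genes came from the SBA libraries, whereas the other libraries of 5 dpi entered the fit through the shared estimate of the spread and so also bear on which genes were called. The higher set had medians of 3.87 to 4.49 in MN1806CN and 2.45 to 2.89 in PI518671 controls, of 4.48 to 5.02 and 2.90 to 3.40 under SCN, and of 3.46 to 4.57 and 2.94 to 3.32 under SCN:SBA. At 30 dpi under SBA, the higher set had medians of 3.58 to 3.74 in MN1806CN and 2.67 to 3.60 in PI518671, and these ranges overlapped. The lower set stayed apart at that time, with 0.91 to 0.99 in MN1806CN and 2.19 to 2.25 in PI518671.

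Of the genes called higher under SBA, 652 of 1181 (55.2%) were also called higher in MN1806CN under SCN at 5 dpi, where 4.05% of all genes tested were called in that direction, and none was called lower. In the control the count was 545 (46.1%, against 12.6% of all genes), with 43 genes called in the opposite direction. Under SCN:SBA it was 111 (9.4%, against 0.39%), which is 66.1% of the 168 genes called higher there, and under SBA at 30 dpi it was 218 (18.5%, against 5.88%), with 26 genes in the opposite direction. The median difference of the higher set on the log2 scale was 1.3 in the control, 1.64 under SCN, 0.96 under SCN:SBA and 0.36 under SBA at 30 dpi. The genes were chosen for a large difference under SBA, so smaller values in other libraries are not read as a change with treatment or time.

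The genes called lower recurred in a different pattern of counts. Under SBA at 30 dpi 260 of 392 (66.3%, against 12% of all genes) were again lower in MN1806CN, followed by 199 under SCN (50.8%, against 3.67%), 194 in the control (49.5%, against 9.89%) and 131 under SCN:SBA (33.4%, against 0.461%, and 65.8% of the 199 genes called lower there). Their median difference was −1.92 at 30 dpi, −1.59 under SCN, −1.57 under SCN:SBA and −1.41 in the control. All 4 other comparisons called 87 of the lower genes (22.2%, against 0.218% of all genes) and 56 of the higher genes (4.74%, against 0.135%). None of the 4 called 257 (21.8%, against 80.2% of all genes) of the higher and 57 (14.5%, against 76.7%) of the lower genes.

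Among the 163 higher and 79 lower genes whose call did not rest on any single SBA library, larger shares recurred. Of the 163, 74.8% were called in the control, 81.6% under SCN, 44.2% under SCN:SBA and 49.1% under SBA at 30 dpi. Of the 79, the shares were 84.8%, 97.5%, 91.1% and 89.9% in the same order. Without MN1806CN replicate 2 the sets were larger, at 2054 higher and 1334 lower genes, and smaller shares recurred, with 45.9% of the higher and 19.3% of the lower genes called under SCN. The lower set is the one that this library changed most, since 392 genes were called lower with it and 1334 without it.

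**Figure D2:**
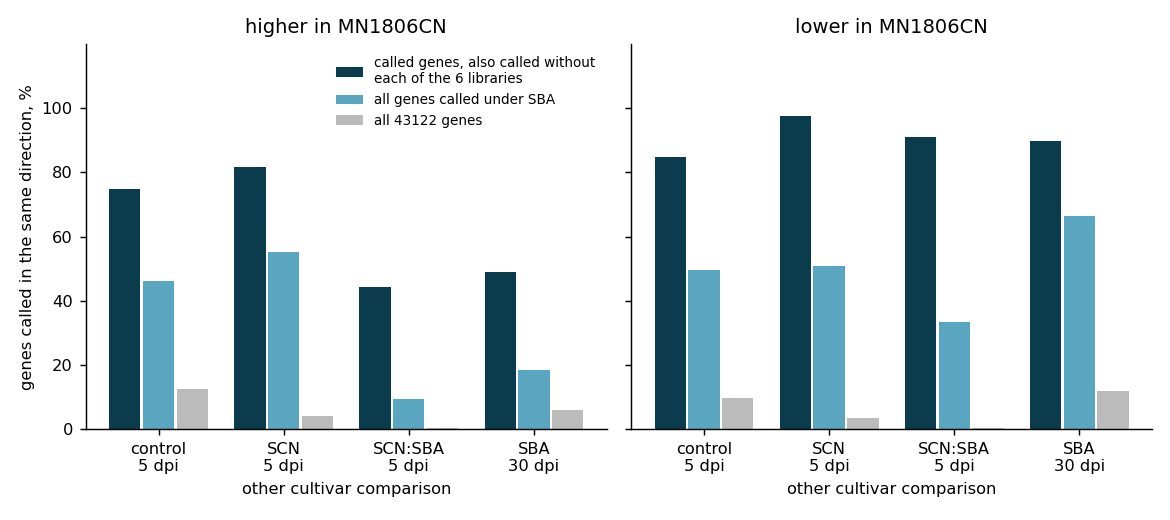
Share of genes called in the same direction in the 4 other cultivar comparisons, for genes called under SBA that were also called without each of the 6 libraries (dark), for all genes called under SBA (blue) and for all 43122 genes tested (grey). Genes higher in MN1806CN are on the left and genes lower on the right; among the genes called without each library, at least 84.8% of the lower ones were called in every other comparison, and 44.2% to 81.6% of the higher ones.

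The other cultivar comparisons differed widely in their number of calls. The control at 5 dpi had 9714 called genes (22.5%), SCN 3329 (7.72%), SCN:SBA 367 (0.851%), and SBA at 30 dpi 7729 (17.9%), so that SBA at 5 dpi lay between SCN and SCN:SBA. In the control, PI518671 replicates 2 and 3 stood apart in their make-up. They had 30857 and 30448 genes at 0.5 CPM or more, against 34066 to 37793 in the other libraries of 5 dpi, and their 100 most abundant genes took 29.6% and 23.2% of the counts, against 11.2% to 20.7%. Their TMM factors were 0.57 and 0.694, and their part in the calls of the control was not tested. Counts of calls depend on the spread within each group, and the difference between treatments was therefore tested gene by gene as an interaction. The cultivar difference under SBA differed from that in the control in 3985 genes (9.24%), of which 2167 (5.03%) had a higher and 1818 (4.22%) a lower difference under SBA. In the 2167 genes the median cultivar difference was 0.55 under SBA and −1.37 in the control, and in the 1818 genes it was −0.27 under SBA and 2.41 in the control. The groups of these libraries show where the values stood apart. In the 1818 genes the median level, as log2(CPM + 1), was 2.86, 2.90 and 2.95 in MN1806CN and 3.47, 2.85 and 3.08 in PI518671 under SBA, and 2.99, 3.40 and 3.16 in MN1806CN and 1.80, 0.76 and 0.77 in PI518671 in the control. The PI518671 controls were thus the low group for these genes, and within them replicate 1 was nearer to the rest. In the 2167 genes the PI518671 controls were the high group, with medians of 5.19, 5.29 and 5.81. The other groups of SBA and the control had 4.03 to 4.9. Both sets of genes were chosen for a difference between these same libraries. Without PI518671 control replicate 1 the interaction was called in 9558 genes. It was called in 1387 to 2595 genes when PI518671 control replicate 2 or 3, MN1806CN control replicate 2 or 3, PI518671 SBA replicate 1, or MN1806CN SBA replicate 1 or 3 was left out. The fit of SBA against the control shares the SBA libraries with the main comparison, and the part of the PI518671 controls in these differences was not tested.

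No gene passed the same test for a cultivar difference under SBA that differed from the one under SCN, or from the one under SCN:SBA, at 5 dpi (0 genes each with edgeR). At an unadjusted p under 0.05 there were 3789 and 2482 genes, and DESeq2 called 205 and 88. Without PI518671 SCN replicate 3, edgeR called 68 genes against SCN, and without PI518671 SCN:SBA replicate 2 it called 2 genes against SCN:SBA. A count of 0 at 3 libraries a group does not show that the cultivar differences were equal. Against SBA at 30 dpi, the difference at 5 dpi was higher in 504 (1.17%) and lower in 68 (0.158%) genes, 572 in all (1.33%), in a fit of all 47 libraries that was added after the data were seen. That count was 1782 without MN1806CN SBA 5 dpi replicate 2 and 1131 without PI518671 SBA 5 dpi replicate 1. It was 108 to 375 when any other of the SBA libraries was left out, except PI518671 SBA 30 dpi replicates 1 (630) and 3 (794).

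A few genes were counted in only 1 cultivar under SBA. There were 14 genes with at least 1 CPM in all 3 MN1806CN libraries and a count of 0 in all 3 PI518671 libraries, and 8 genes with the reverse pattern. Set against a floor of 3 counts over the group with no count, the 14 genes were at least 41.7-fold to 226-fold higher in MN1806CN, with a median bound of 75.1-fold, and 13 of them were called. The 8 genes were at least 24.1-fold to 161-fold lower in MN1806CN, with a median bound of 34.3-fold, and all 8 were called. The 14 and the 8 genes were chosen on the same libraries as the calls, so these calls are no separate evidence. Over the whole series none of these genes stayed at 0 in the cultivar without counts, but 1 count in 1 library is enough to break that rule. Of the 14 genes, 0 were at 0 in all 21 other PI518671 libraries and 5 reached 1 CPM in all 20 other MN1806CN libraries, and of the 8 genes 0 were at 0 in all 20 other MN1806CN libraries and 3 reached 1 CPM in all 21 other PI518671 libraries.

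Lasting cultivar differences were marked by the 143 genes that separated the cultivars in all other libraries. Of the 72 that were higher in MN1806CN there, 63 (87.5%, against 2.74% of all genes tested) were called higher under SBA. The median difference over all 72 was 3.8 on the log2 scale (range 0.56 to 10.27). Of the 71 that were lower there, 68 (95.8%, against 0.909%) were called lower, with a median of −5.57 (−9.39 to −1.06). In 141 of the 143 genes the SBA libraries of the cultivars did not overlap, against 26% of all genes tested. The 143 genes account for 131 of the 1573 calls under SBA.

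Individual genes ranged between steady and erratic. Glyma.16g098100 had 0, 0 and 0.0603 CPM in MN1806CN replicates 1 to 3, against 8.87, 14.5 and 12.5 CPM in PI518671. This was 1 count against 1045, a level in PI518671 585-fold that in MN1806CN (95% interval for counting error alone 105 to 23100), with a fitted log2 difference of −8.61 ± 0.807 (SE) and an adjusted p of 3.11e-06. It was lower in MN1806CN in each of the 4 other comparisons as well and was called under all 15 alternatives, so it is an example of a difference found in every treatment.

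The other genes named by the rule varied between replicates or treatments. Glyma.13g281100 had a count of 0 in all 3 MN1806CN libraries, against 5.78, 0.375 and 39.6 CPM in PI518671, which makes it at least 157-fold lower in MN1806CN against a floor of 3 counts over the group (adjusted p = 0.0472). Most of that signal came from PI518671 replicate 3, and the call held in 7 of 15 alternatives. In the other treatments at 5 dpi its highest value was 0.791 CPM in MN1806CN and 1.93 CPM in PI518671, and under SCN and SCN:SBA it had a count of 0 in every PI518671 library. At 30 dpi it had a count of 0 in every MN1806CN library, against 0 to 13.6 CPM in PI518671. Under SBA at 30 dpi PI518671 had 1.24, 7.41 and 0 CPM. The log2 difference there was −9.24 and was not called (adjusted p = 0.0594).

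Glyma.12g136400 was higher in MN1806CN, with 47.3, 9.46 and 39.4 CPM against 0, 0.132 and 0.11 CPM in PI518671. Its log2 difference was 8.46 ± 1.83 (SE) with an adjusted p of 0.0145, and the call held in 11 of 15 alternatives. It was also called under SCN (8.13, adjusted p = 0.0131) and in the control (5.13, adjusted p = 0.0218), whereas under SBA at 30 dpi its difference was 0.03. In PI518671 it stayed under 0.6 CPM in all libraries of 5 dpi, and in MN1806CN it varied within treatments, with 25, 0.156 and 0.415 CPM under SCN:SBA.

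Glyma.07g124400 had 0.178, 47.1 and 46.4 CPM in MN1806CN replicates 1 to 3, against 0, 0 and 0.055 CPM in PI518671. Over the groups this was 1350 counts against 1 (2410-fold, 95% interval for counting error alone 432 to 95400), with an adjusted p of 0.0139 and the call held in 11 of 15 alternatives. MN1806CN replicate 1 was close to the PI518671 level, so the difference rests on replicates 2 and 3. The same scatter appeared in MN1806CN under other treatments, with 24.7, 9.84 and 0.417 CPM in the control and 0.179, 4.61 and 26.4 CPM under SCN:SBA, and the cultivar difference was not called in the control, under SCN, under SCN:SBA or under SBA at 30 dpi. At 30 dpi under SBA it had 0, 0.486 and 3.01 CPM in MN1806CN, against 60.2, 1.64 and 3.44 CPM in PI518671, a log2 difference of −4.33 (adjusted p = 0.0932). None of these 4 genes was called in the interactions of SBA with another treatment at 5 dpi. In the comparison of 5 with 30 dpi under SBA, Glyma.07g124400 (14.99 ± 3.25 on the log2 scale, SE, adjusted p = 0.0167) and Glyma.12g136400 (8.43 ± 2.19, adjusted p = 0.0423) were called. Both genes were chosen for a large difference in the same SBA libraries of 5 dpi, so these calls are no separate evidence of a change with time. The calls against 30 dpi were not followed with libraries left out. The 8 most changed genes in each direction under the same rule, these 4 included, were looked up in the other comparisons. Of the 8 higher genes, 5 were called higher under SCN (against 4.05% of all genes) and 2 in the control (12.6%). Under SCN:SBA 1 was called (0.39%) and under SBA at 30 dpi 1 (5.88%). Of the 8 lower genes, 6 were called lower under SCN (against 3.67% of all genes) and 5 in the control (9.89%). Under SCN:SBA 6 were called lower (0.461%) and under SBA at 30 dpi 7 (12%).

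**Figure D3:**
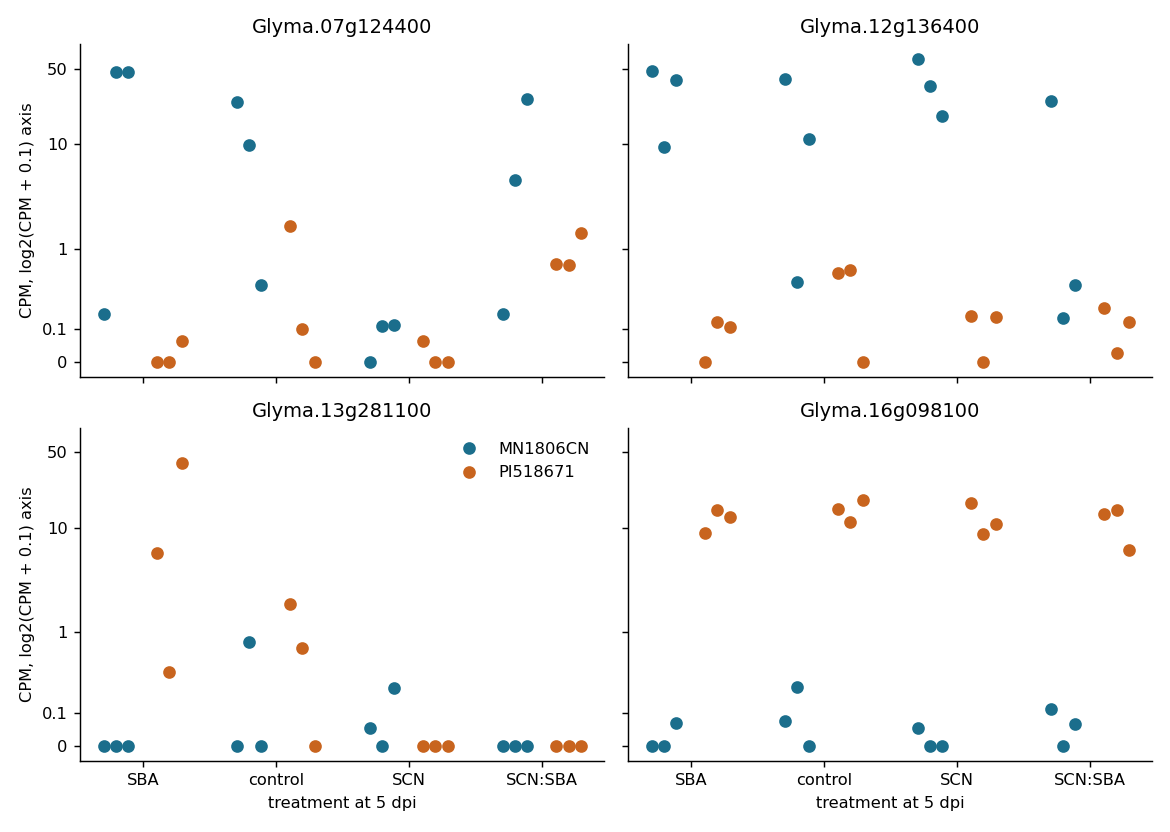
CPM of the 4 genes named by the rule in each library at 5 dpi, on an axis of log2(CPM + 0.1) labelled in CPM, with 1 point per library and MN1806CN left of PI518671 in each treatment. Glyma.16g098100 lies at 0.247 CPM or less in every MN1806CN library and at 6.26 CPM or more in every PI518671 library, whereas the other 3 genes vary among replicates of the same group.

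The chromosome number and order written in the gene IDs allow the calls to be placed, without coordinates, among the kept genes of each chromosome. Chromosome 16 had the largest share of called genes with 5.64% (68 higher and 27 lower). Chromosome 18 followed with 4.87% (65 and 41) and chromosome 15 with 4.73% (57 and 41). The share was 3.65% over all genes tested and 2.71% on chromosome 17, the smallest. The same 3 chromosomes held the largest numbers of the 143 lasting cultivar differences, with 14 on chromosome 16, 23 on chromosome 18 and 17 on chromosome 15. Of the 143 genes, 131 were themselves called under SBA, so the tallies share genes and are not independent.

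**Figure D4:**
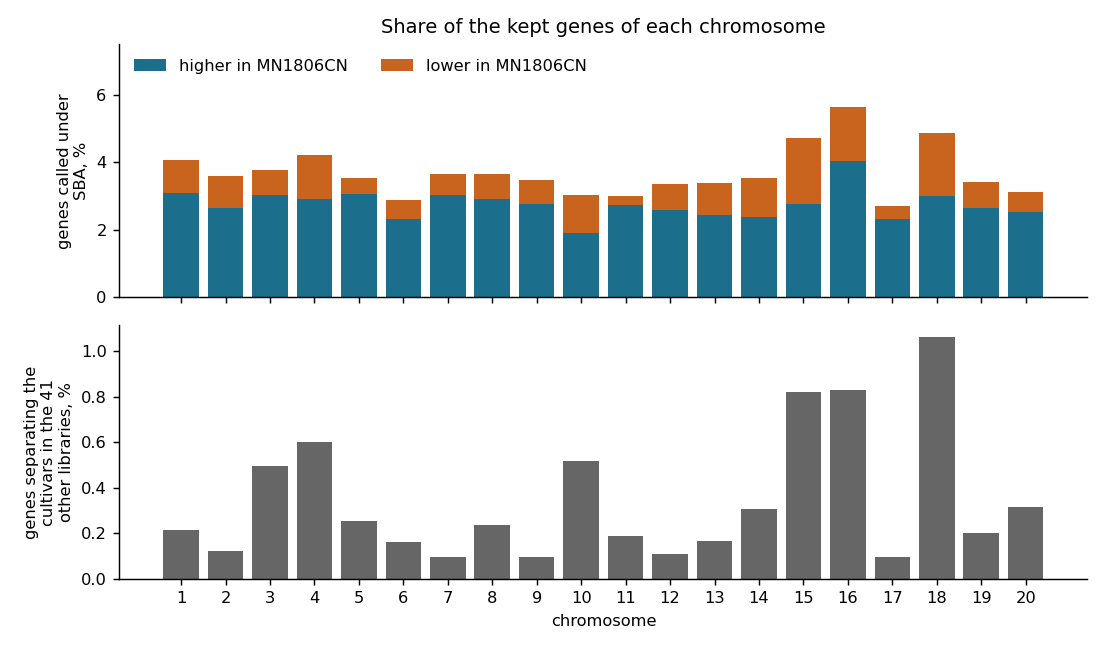
Percentage of the kept genes of each of the 20 chromosomes that were called higher or lower in MN1806CN under SBA (top, stacked) and percentage that separated the cultivars in the 41 other libraries (bottom). Chromosomes 15, 16 and 18 have the tallest bars in the top panel, 4.73% to 5.64%, and in the bottom panel, 0.82% to 1.06%. Of the 143 genes of the bottom panel, 131 are also counted in the top panel.

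In windows of 50 kept genes, the median number of called genes was 2, and 160 of 845 windows had none. The highest number was 10, in kept genes 1801 to 1850 of 2073 on chromosome 15, with 5 higher and 5 lower in MN1806CN. In that window 18 of the 50 genes were called in the control (22.5% of all genes), 15 under SCN (7.72% of all genes), 8 under SCN:SBA (0.851%) and 19 under SBA at 30 dpi (17.9%). The gene next to a higher gene was also called higher in 83 of 1170 cases (7.09%, against 2.74% of all genes), and the gene next to a lower gene was also called lower in 23 of 391 (5.88%, against 0.909%). Neighbouring genes can be near-identical copies whose reads the quantification divides between them, so such neighbours are not independent observations.

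Runs of at least 3 neighbouring kept genes called in the same direction numbered 9. On chromosome 4, kept genes 959 to 962 were lower in MN1806CN, where they had 0 to 0.0815 CPM, while gene 961 had 2.48, 3.38 and 2.31 CPM in PI518671. Genes 959 and 962 had no count in the MN1806CN libraries of SBA at 5 dpi and were at least 12.7-fold and 5.22-fold lower there against the floor of 3 counts. All 4 genes were called lower in every other comparison as well.

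On chromosome 18, kept genes 1903 to 1905 followed the same pattern. Gene 1903 had a count of 0 in the MN1806CN libraries of SBA at 5 dpi, against 7.05, 4.68 and 7.15 CPM in PI518671, and was at least 87.7-fold lower in MN1806CN. Over the 47 libraries it reached 0.297 CPM in MN1806CN and fell to 0.05 CPM in PI518671. Gene 1904 had 0, 0.0815 and 0.0603 CPM in MN1806CN, against 2.75, 2.45 and 2.53 CPM in PI518671. The run was called lower in every other comparison too, so both runs are cultivar differences found with and without SBA.

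On chromosome 15, gene 603 had 1150, 340 and 549 CPM in MN1806CN, against 15.3, 47 and 45 CPM in PI518671, with a log2 difference of 4.38 ± 0.671 (SE, adjusted p = 0.00125). Gene 604 had 535, 204 and 287 CPM in MN1806CN, against 31.2, 21.5 and 46.4 CPM in PI518671 (3.49 ± 0.518, adjusted p = 0.000897), and gene 605 had 263, 56.3 and 107 CPM against 6.72, 4.66 and 5.83 CPM. MN1806CN replicate 1 was the highest and replicate 2 the lowest in all 3 genes. Gene 605 was not called in the control, where its difference was −1.31, whereas gene 604 was called there at 3. Gene 603 was not called in the control (1.65). Genes 603 and 604 were also called under SCN (4.12 and 2.88) and under SCN:SBA (2.8 and 2.16). Under SBA at 30 dpi gene 603 alone was called (1.52). Gene 605 was called in none of the other comparisons.

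On chromosome 3, kept genes 1465 to 1468 were higher in MN1806CN by 1.86 to 2.99 on the log2 scale. Gene 1468 had 63.1, 28.4 and 17.7 CPM in MN1806CN, against 5.23, 5.87 and 7.43 CPM in PI518671 (adjusted p = 0.0365). Replicate 1 was the highest MN1806CN library in each of the 4 genes. In the other comparisons only gene 1468 was called, in the control (2.22, adjusted p = 0.0271), and none under SCN, under SCN:SBA or under SBA at 30 dpi. Over the 47 libraries gene 1465 ranged between 13.3 and 112 CPM in MN1806CN and between 3.61 and 96.8 CPM in PI518671, so the cultivars overlapped once other treatments were included.

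**Figure D5:**
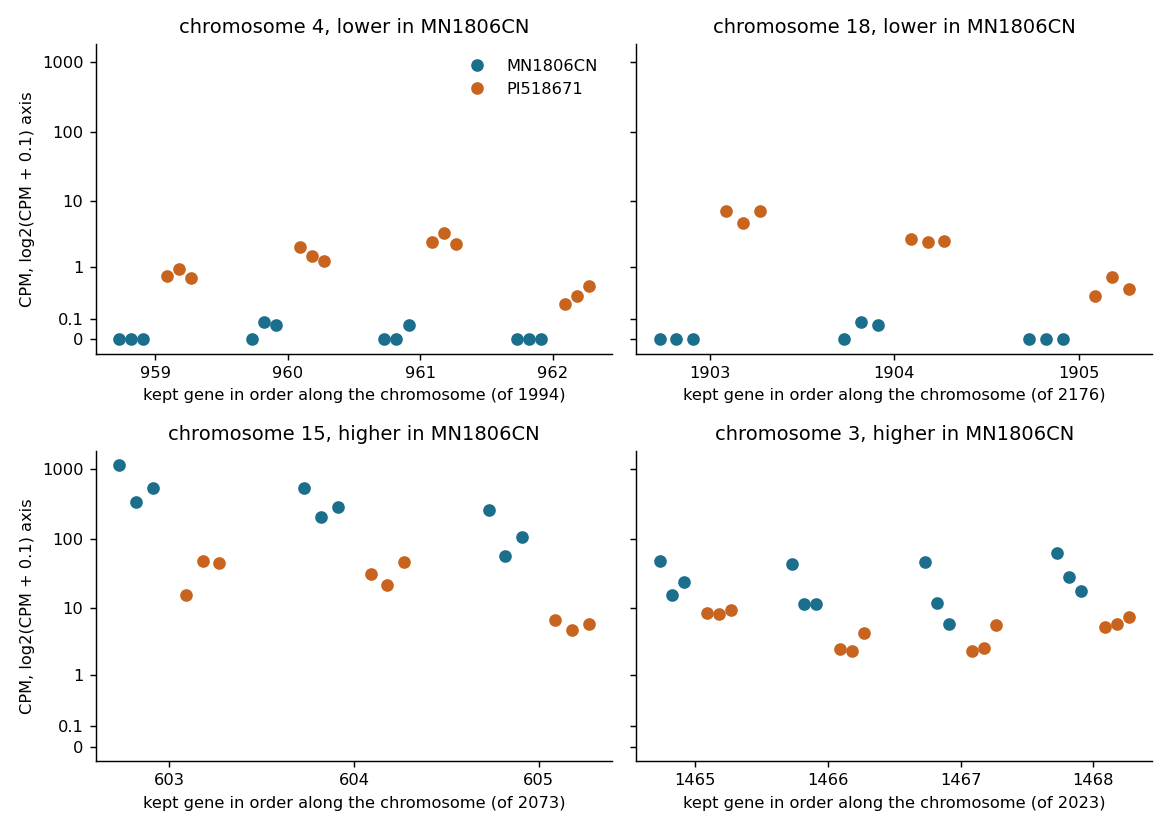
CPM of the genes of 4 runs of neighbouring called genes in the 6 SBA libraries at 5 dpi, on an axis of log2(CPM + 0.1) labelled in CPM, with MN1806CN left of PI518671 and 1 point per library. In the runs on chromosomes 4 and 18 MN1806CN lies at 0 to 0.0815 CPM, and in those on chromosomes 15 and 3 the leftmost MN1806CN point, replicate 1, is the highest.

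Among the remaining runs, 3 genes on chromosome 9 (1579 to 1581) and 3 on chromosome 12 (77 to 79) were higher in MN1806CN. All were called under SCN as well, 2 of each run were called in the control, and 0 under SCN:SBA or under SBA at 30 dpi. Gene 79 on chromosome 12 had 1.07, 0.489 and 0.422 CPM in MN1806CN and a count of 0 in all 3 PI518671 libraries, which is at least 18.5-fold higher in MN1806CN. A second run on chromosome 12 (498 to 500) was called higher under SBA and in the control. Under SCN its differences were 1.9, 1.72 and 0.95 and under SCN:SBA 0.26, 2.14 and 1.3 on the log2 scale, none of them called. Its gene 498 had 110, 31.2 and 49.8 CPM in MN1806CN, against 7.77, 5.61 and 6.16 CPM in PI518671. On chromosome 8, genes 932 to 934 were lower in MN1806CN by 1.88 to 4.01 on the log2 scale. Gene 933 had 1.84, 2.69 and 0.663 CPM in MN1806CN, against 11.5, 10.5 and 17.6 CPM in PI518671. None of the 3 was called in the control, all were called lower under SCN and under SBA at 30 dpi, and 2 under SCN:SBA. For none of these runs was the difference between treatments tested as a run.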

How the data were processed

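Root RNA was read from a single end of each fragment by the study (Illumina HiSeq), with 3 biological replicates for each of the groups compared. The authors trimmed the reads and quantified them with Salmon 0.9.1 on the primary transcripts of Wm82.a2.v1, and deposited the estimated counts per gene without normalization. These transcripts come from Williams 82, which is PI518671, so reads of MN1806CN were assigned to the sequences of the other cultivar, and the part of this in the differences was not tested. Of the values, 42.7% were not whole numbers, and all were rounded. The reads carry no molecular identifiers, so intervals and floors cover counting error only.

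Genes with at least 0.5 CPM in at least 1 of the 47 libraries were kept. Cultivar differences (MN1806CN minus PI518671) were tested in R 4.3.3 with edgeR 4.0.16 (TMM normalization, two-sided quasi-likelihood F test, Benjamini-Hochberg adjustment over 43122 genes) in a fit of the 24 libraries of 5 dpi, which share an estimate of the spread, and of the 23 libraries of 30 dpi. Treatments were compared by interaction terms. Standard errors are the size of the log2 difference over the square root of F. The scripts were tested on simulated data. The named genes are the most changed in each direction among called genes with non-overlapping groups and a mean of at least 5 CPM, at most 2 in each direction, because the IDs could not be paired with names. For the same reason the planned gene lists and cell type markers gave no result. 1 run of 4 neighbouring genes is not reported here. Figures were drawn with matplotlib 3.10.9 in Python 3.11.15. The comparison, genes, lists and alternatives were chosen with earlier results of these data known.

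The alternatives were RLE size factors, no filter, edgeR's filterByExpr, the DESeq2 1.42.0 Wald test, only the groups of a contrast, all 47 libraries, no PI518671 control group, counts thinned to a common depth, a limit of 1 on the log2 difference, the replicate number as a block and each library left out in turn. The comparison of 5 with 30 dpi under SBA with its alternatives, and the sets of called genes without a library or group, were added after seeing the data.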

Additional observations from a re-analysis of the deposited data

Results flagged for a closer look

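The cultivar difference under SBA at 5 dpi was set against that in another treatment or time, and the tests of the difference itself called genes in 2 of 4 cases. Against the control at 5 dpi, 3985 genes were called (edgeR interaction term). The PI518671 control libraries stood apart in these genes, as the medians in the report show, but the genes were chosen on the same libraries. The part of the PI518671 controls in the count was not tested. Against SBA at 30 dpi, 572 genes were called in the fit of all 47 libraries, 504 with a higher and 68 with a lower difference at 5 dpi. The time points also differ in the water bath, and the 2 cannot be told apart.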

How the results depend on the processing

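The 1573 genes called under SBA became 3439 with DESeq2, 3710 with all 47 libraries in the fit, 2776 without the PI518671 control group and 473 with only the 6 libraries. It was 285 to 3388 when single libraries were left out, and 1420 to 1511 with RLE size factors, no filter, filterByExpr, thinned counts or a limit of 1 on the log2 difference. The share of higher genes among those called was 75.1%. It was 60.6% without MN1806CN replicate 2, 60.6% without PI518671 replicate 2, 62.1% without PI518671 replicate 3, 61.6% without the PI518671 control group, 62.7% with DESeq2 and 64.6% with all 47 libraries. Without replicate 1 of PI518671 or of MN1806CN the share was 69.4% and 69.5%. With RLE size factors, no filter, filterByExpr or thinned counts it was 70.3% to 75.6%. The share was larger without MN1806CN replicate 3 (80.5%), with only the 6 libraries (79.5%) and with the replicate block (76.6%). The 3985 genes of the comparison of SBA with the control became 6428 with DESeq2 and 1015 with only its 4 groups, and 1387 to 9558 without single libraries. The counts of 0 against SCN and SCN:SBA became 205 and 88 with DESeq2, and were 0 to 68 and 0 to 2 without single libraries. The 572 genes of 5 against 30 dpi were 108 to 1782 without single libraries. Allowing at most 1 count raised the 22 genes counted in 1 cultivar to 43. The median differences of the full sets moved by at most 0.07, and those of the 163 and 79 genes by at most 0.5, on the log2 scale when genes with a group at 0 were set at their bound.

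The replicate number as a block gave 1352 genes under SBA, 3405 for the comparison with the control and 492 for 5 against 30 dpi. The study's methods describe the 3 replicates of a group as plants of 3 blocks, but the labels do not say whether replicate numbers stand for blocks. The main fit was planned without a block. The deviations of same-numbered libraries correlated at −0.042, 0.23 and −0.056, and those of differently numbered ones at −0.4 to 0.46. With 3 libraries a group these values cannot decide whether the numbers pair the libraries. Precision is limited by the 12268563 counts of the smallest library and by 3 libraries a group. MN1806CN replicate 2 correlated with its group at 0.931 and 0.946, and the PI518671 libraries correlated with each other at 0.917 to 0.943.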
